A study of Homo sapiens with 21 samples.

Results

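Estrogen receptor beta (ER-beta, the product of ESR2) left 26861 regions in the list of enriched DNA from estradiol-treated cells, and 9771 of these had their summit in intergenic DNA. The regions described here are the 1561 intergenic ones whose best copy of the canonical estrogen response element (ERE) near the summit had exactly 1 mismatch, which is 16.0% of the intergenic regions and 5.81% of the whole list. Intergenic means that the summit lay outside every protein-coding transcript and outside the 1000 bp upstream of every protein-coding transcription start site (TSS). The element is GGTCANNNTGACC, in which 2 inverted arms of 5 fixed bases flank a spacer of 3 free bases, and it was sought within 100 bp on either side of the summit. The rule used the position and the DNA sequence of a region and its presence in the estradiol list, not its strength or its presence in the other lists.

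The data came from cells of the triple negative breast cancer line MDA-MB-231 carrying a doxycycline-inducible ER-beta with a Flag tag. All cells, the vehicle-treated ones included, had received doxycycline at 100 ng/ml for 24 h to switch the receptor on, and the receptor was pulled down through the tag with the Flag M2 antibody before sequencing (ChIP-seq). The treatments lasted 3 h and were 1 nM estradiol, LY500307 (an agonist selective for ER-beta) and the ethanol vehicle. The titles of the LY500307 samples state 1 nM whereas their treatment labels state 10 nM, so that dose is uncertain. The labels describe 12 ChIP libraries and 9 input libraries, 4 and 3 per treatment, and 1 list of regions per treatment. Each list was taken as a pool, so values carry no error between replicates and treatments are not tested against each other. The fold of a region is the authors' ratio of pooled ChIP signal to local background at its summit, and folds from different lists are given side by side without measuring a change. Intervals are 95% and cover only the counting of regions.

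ER-beta is a ligand-activated transcription factor that binds DNA as a dimer, with each partner contacting 1 arm of the ERE. Natural binding sites seldom carry the perfect palindrome, and an element with a single changed base is the classical imperfect ERE, as in several estrogen-responsive genes of breast cells. Much of the binding of estrogen receptors lies far from promoters, at places that can act as enhancers.

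The elements of 6 of the 10 regions with the highest −log10 q values are shown because they carry mismatches in 4 of the 5 positions of an arm. Each is printed on hg38 with 24 bases on either side, the element in capitals, and on the strand that puts the mismatched arm first. A region is named by the protein-coding gene with the nearest TSS, which labels its place and not a target.
SPIN1, chr9:88344692-88344752 on the minus strand: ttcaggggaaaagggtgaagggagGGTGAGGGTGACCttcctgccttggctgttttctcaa
SMAD7, chr18:48991007-48991067 on the minus strand: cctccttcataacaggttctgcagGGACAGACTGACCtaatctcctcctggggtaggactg
MFSD10, chr4:2937288-2937348 on the minus strand: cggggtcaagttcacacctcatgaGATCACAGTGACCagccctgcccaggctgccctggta
AMOTL2, chr3:134327698-134327758 on the plus strand: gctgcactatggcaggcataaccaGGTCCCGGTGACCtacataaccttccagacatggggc
SMOX, chr20:4136657-4136717 on the minus strand: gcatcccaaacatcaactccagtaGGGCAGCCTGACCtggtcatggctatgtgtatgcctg
CTSD, chr11:1772732-1772792 on the plus strand: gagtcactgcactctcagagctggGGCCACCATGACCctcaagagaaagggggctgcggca

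A mismatch is written as the base of the element, its position counted from 1 at the 5′ end of the mismatched arm, and the base found. The SPIN1 element carried C4G and the SMAD7 element T3A. MFSD10 carried G2A, AMOTL2 carried A5C, SMOX carried T3G and CTSD carried T3C. The summits of these 6 regions lay 5 to 46 bp from the centre of the element, and the strongest region of the set, at SPIN1, was 18 bp from it.

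The element sat close to the summit in most regions, although the rule allowed it anywhere in the window. Its centre was within 25 bp of the summit in 1118 of 1561 regions (71.6%, interval 69.3 to 73.8%), against 27.0% if every place in the window were equally likely. The median distance was 15 bp. Perfect EREs of intergenic regions were within 25 bp in 79.7% of 236 regions and intronic elements with 1 mismatch in 72.3% of 1393 regions. For intergenic elements the share was 64.4% of 3423 regions with 2 mismatches and 68.3% of 4551 regions with 3 or more. Where several elements had equally few mismatches, the one nearest the summit was taken, which can raise these shares. In windows of the same width taken 2000 bp downstream of the 9771 intergenic summits, an element with 1 mismatch was found in 62 (0.635%) and a perfect one in 5. Of those 62, 24.2% had the element within 25 bp of the window centre. Regions with the element within 10 bp of the summit had a median fold of 17.6 (561 regions), against 10.6 for those at 26 to 50 bp (307 regions). The rank correlation between fold and distance was weak, at −0.14 over the 1561 regions.

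**Figure D1:**
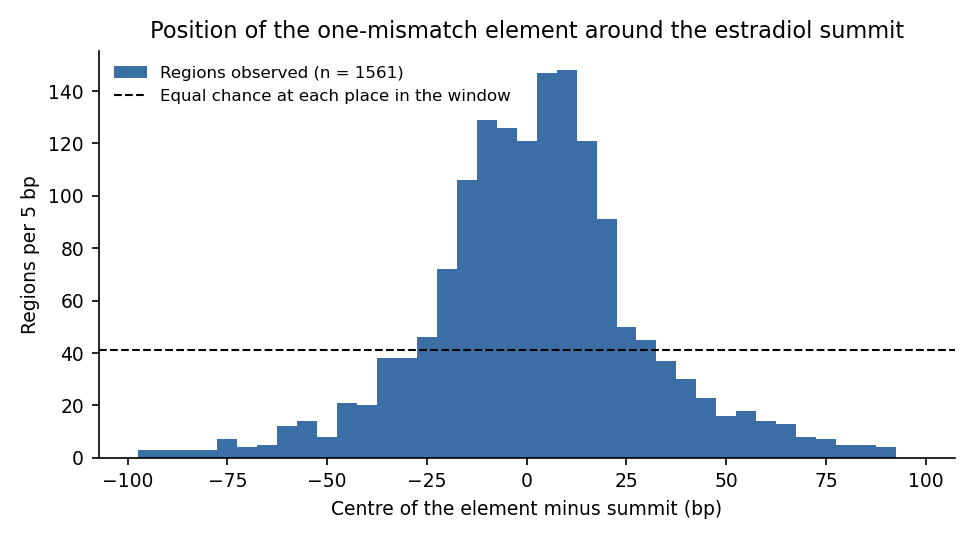
Distance in bp between the centre of the 1-mismatch element and the estradiol summit for the 1561 regions, in bins of 5 bp on the horizontal axis with the number of regions on the vertical axis. The bars stand above the dashed line of equal chance within about 25 bp of the summit, where 71.6% of the regions lie.

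The regions had a higher median fold than the estradiol list as a whole, with wide overlap. Their fold had a median of 15.2 (interval 14.4 to 16.0), with quartiles of 8.50 and 30.7 and a range of 3.74 to 192. The 7974 intergenic regions with 2 or more mismatches had a median fold of 10.9 (10.6 to 11.2), and all 26861 estradiol regions had 9.50. The 1393 intronic regions with 1 mismatch had a median of 14.3 (13.4 to 15.5), so their interval overlaps that of the intergenic ones. The 236 intergenic regions with a perfect ERE had a median of 11.5 (9.91 to 13.4), below that of the regions with 1 mismatch. A fold of at least 10 was reached by 66.9% of the 1561 regions, against 53.7% of the intergenic regions with 2 or more mismatches. A fold of at least 100 was reached by 44 regions (2.82%), against 2.56% of those with 2 or more mismatches.

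Of the 1561 regions, 651 (41.7%, interval 39.3 to 44.2%) overlapped a region of the LY500307 list by at least 1 bp, beside 33.8% of all estradiol regions. The share was 33.8% (32.8 to 34.9%) among intergenic regions with 2 or more mismatches, 42.1% among intronic regions with 1 mismatch and 38.1% among intergenic perfect EREs. An ethanol region was overlapped by 169 (10.8%, 9.38 to 12.5%), beside 9.26% of all estradiol regions and 7.46% of the intergenic ones with 2 or more mismatches. The ethanol share depended on the rule, with 5.70% when 50% of each region had to overlap, 6.51% at a fold of at least 10 in every list, and 54.4% with lists cut to equal length. The LY500307 share was 79.6% with lists cut to equal length. These alternative shares are given without the like share over all estradiol regions. They show how far a share depends on the rule and no trait of these regions. Under the main rule, intronic regions with 1 mismatch overlapped an ethanol region in 10.1% and intergenic perfect EREs in 14.4% (10.5 to 19.5%). The share in both other lists was 10.8% (168 regions), beside 8.01% of all estradiol regions. The LY500307 list alone was shared by 483 regions (30.9%), beside 25.8%, and the ethanol list alone by 1 region, near NAIF1, beside 1.25%. The other 909 regions (58.2%) were in the estradiol list only, beside 64.9% of that list.

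These shares moved with the strength of the region. When all estradiol regions were divided into 4 quartiles of −log10 q, the highest held 619 of the 1561 regions (39.7%) and the lowest held 132 (8.46%). In the highest quartile 89.8% of the regions were in the LY500307 list, against 90.8% of the intergenic regions with 2 or more mismatches. Over all estradiol regions of that quartile it was 90.9%. In the same quartile 27.1% (23.8 to 30.8%) were in the ethanol list, against 20.8% (19.2 to 22.6%). In the lowest quartile 1.52% of the regions were in the LY500307 list, against 7.47% of those with 2 or more mismatches. That list held 1.52% of the intronic regions with 1 mismatch, none of the 39 intergenic perfect EREs and 9.41% of all estradiol regions. The ethanol list held none of the 132 regions of the lowest quartile (interval 0 to 2.83%), against 5.10% (4.07 to 6.36%). In the second quartile it held none of 336 (0 to 1.13%), against 1.98% (1.46 to 2.68%), and in the third 0.211%, against 0.868%. At a given strength the sharing with LY500307 was therefore no higher than in the intergenic regions with 2 or more mismatches. Against those regions, the sharing with ethanol was higher in the highest quartile and lower in the lowest and the second. This was not particular to the 1561 regions. Of the intronic regions with 1 mismatch, the ethanol list held 25% (21.5 to 28.8%) in the highest quartile and 0.959% in the third. It held 0.658% in the second and none of 132 in the lowest. In the highest quartile it held 44% (33.3 to 55.3%) of the intergenic perfect EREs and 23.6% of all estradiol regions. Of all estradiol regions it held 5.79% in the lowest quartile, 4.88% in the second and 2.86% in the third.

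The estradiol fold had a median of 72.6 in the 168 regions of all 3 lists, 29.5 in the 483 shared with LY500307 alone and 9.50 in the 909 of the estradiol list only. At their own summits in the LY500307 list, the median fold was 23.6 for the 168 and 8.90 for the 483. In the ethanol list it was 8.77 for the 168. The weakest of the 168 had an estradiol fold of 20.1, and the strongest of the 909 had 34.0, so these classes overlapped only between those values. Summits of the LY500307 regions lay a median of 14 bp from the estradiol summits, and those of the ethanol regions 11 bp. Over the 651 shared regions the rank correlation of estradiol and LY500307 folds was 0.81. Over the 169 regions shared with ethanol, that of estradiol and ethanol folds was 0.60. Both are descriptions across regions, which share the pooled libraries.

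**Figure D2:**
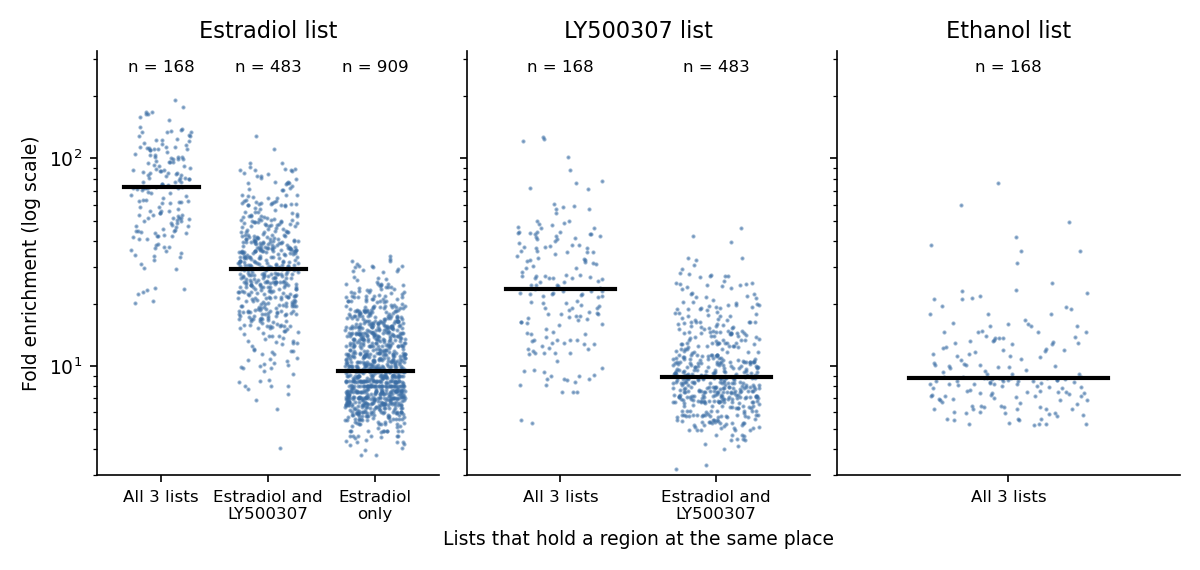
Fold enrichment (vertical axis, log scale) of the regions in the estradiol, LY500307 and ethanol lists, by the lists that hold a region at the same place. Each point is 1 region and the black line is the median, which is 72.6, 29.5 and 9.50 for estradiol, 23.6 and 8.90 for LY500307 and 8.77 for ethanol; the 1 region shared with ethanol alone is not drawn.

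The 10 regions with the highest −log10 q were all in all 3 lists. The strongest lay 43.7 kb upstream of SPIN1, which encodes a reader of histone methylation, with folds of 192 for estradiol, 54.9 for LY500307 and 35.8 for ethanol. The next was 40.1 kb upstream of SMAD7, the inhibitory SMAD of TGF-beta signalling, and its folds in those 3 lists were 177, 127 and 41.7. The region 8.19 kb upstream of CTSD, the lysosomal protease cathepsin D and a long-known estrogen-induced gene of breast cancer cells, had folds of 164, 75.9 and 19.6. The region near SMOX, which encodes spermine oxidase, had 168, 46.1 and 16.0. The region near AMOTL2, a junction-associated angiomotin, had 167, 122 and 59.6. The region 10.6 kb upstream of LAPTM4B, which encodes a lysosomal membrane protein, was the only one of the 10 with a higher fold in the ethanol list (75.9) than in the LY500307 list (58.8), and its estradiol fold was 114. The others of the 10 lay near MFSD10, ACTL8, STX16 and MYEOV, with estradiol folds of 111 to 163 and ethanol folds of 21.0 to 49.3.

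Among regions in the LY500307 list but not in the ethanol list, the highest lay 32.1 kb upstream of INHBB, which encodes a subunit of activin B. Its estradiol fold was 129 and its LY500307 fold 28.1. The next, at SLC16A1 (the lactate transporter MCT1), had 111 and 46.5. The regions near NAT9, ADAMTS8 (a secreted metalloprotease) and B3GALT6 (a galactosyltransferase) followed, with estradiol folds of 65.4 to 95.6 and LY500307 folds of 27.2 to 42.5. The highest regions in the estradiol list only were weaker. They lay 14.6 kb downstream of the TSS of MYC, the growth-promoting transcription factor, and near GSDMC, ZNF507, PALMD and RYBP, with folds of 24.2 to 34.0. The NAIF1 region, the only one shared with ethanol and not LY500307, had an estradiol fold of 13.5 and an ethanol fold of 6.87.
ZNF507, chr19:32322608-32322668 on the minus strand: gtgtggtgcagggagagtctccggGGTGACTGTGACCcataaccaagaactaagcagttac
INHBB, chr2:120314128-120314188 on the plus strand: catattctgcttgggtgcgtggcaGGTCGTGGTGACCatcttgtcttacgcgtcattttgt
SLC16A1, chr1:112866135-112866195 on the plus strand: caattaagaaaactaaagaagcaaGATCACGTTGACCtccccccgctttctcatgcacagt
NAIF1, chr9:128047402-128047462 on the minus strand: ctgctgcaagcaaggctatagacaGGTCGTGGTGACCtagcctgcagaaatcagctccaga
These 4, printed like the first set, are among the strongest of the classes with fewer lists. INHBB and NAIF1 carried the same 13 bases with A5G, and their estradiol folds were 129 and 13.5.

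A large share of the regions turned out to be copies of 1 repeated sequence. The most frequent mismatch was A5T, in 450 of the 1561 regions (28.8%), against 16.7% of the intronic regions with 1 mismatch. A majority sequence was taken over 425 of the 450 A5T regions, with 60 bases on either side of the element. Aligned to hg38, it had 3247 copies that covered the element. The element of 372 of the 1561 regions (23.8%) lay on such a copy, and 363 of these 372 (97.6%) carried A5T. Of the other 1189 regions, 87 (7.32%) carried A5T. The majority sequence came from A5T regions and a copy had to cover its element, so this difference was largely built in. A summit within 100 bp of a copy was found for 2.58% of all estradiol, 2.80% of LY500307 and 1.55% of ethanol regions. The sequence came from the 1561 regions, so a higher share among them was partly built in. Copies with 1 mismatch had an estradiol summit at 33.0% of 470 outside intergenic DNA and at 32.5% of 1151 within it. No repeat annotation was used here, and the family of the sequence is not named.

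Across the genome, the occupied share of the copies was lower at 2 and at 3 mismatches of the element than at 1. An estradiol summit within 100 bp was found at 692 of the 3247 copies, 21.3%. It was found at 529 of 1621 copies with 1 mismatch (32.6%, interval 30.4 to 34.96%), at 135 of 1069 with 2 mismatches (12.6%, 10.8 to 14.8%), at 14 of 351 with 3 (3.99%, 2.39 to 6.58%) and at 8 of 194 with 4 or more (4.12%). Only 12 copies held a perfect ERE, and 6 of them had an estradiol summit (50%, interval 25.4 to 74.6%). LY500307 summits were found at 281 copies (8.65%), with 13.6% at 1 mismatch, 4.77% at 2, 1.14% at 3 and none of the 194 copies with 4 or more. Ethanol summits were found at 45 copies (1.39%), with 2.41% at 1 mismatch and 0.468% at 2. Median identity to the majority sequence was 88.3% at 0 mismatches, 90.2% at 1, 88.8% at 2, 87.4% at 3 and 85.7% at 4 or more. The part of identity in these shares was not tested. With estradiol summits moved by 2000 bp, 10 of 26861 lay within 100 bp of a copy, against 692 at their own place. The majority sequence was itself taken from estradiol regions, so an excess at their own place was fixed in advance. Those regions all had 1 mismatch, so the share at 1 mismatch is not independent of that choice either.

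**Figure D3:**
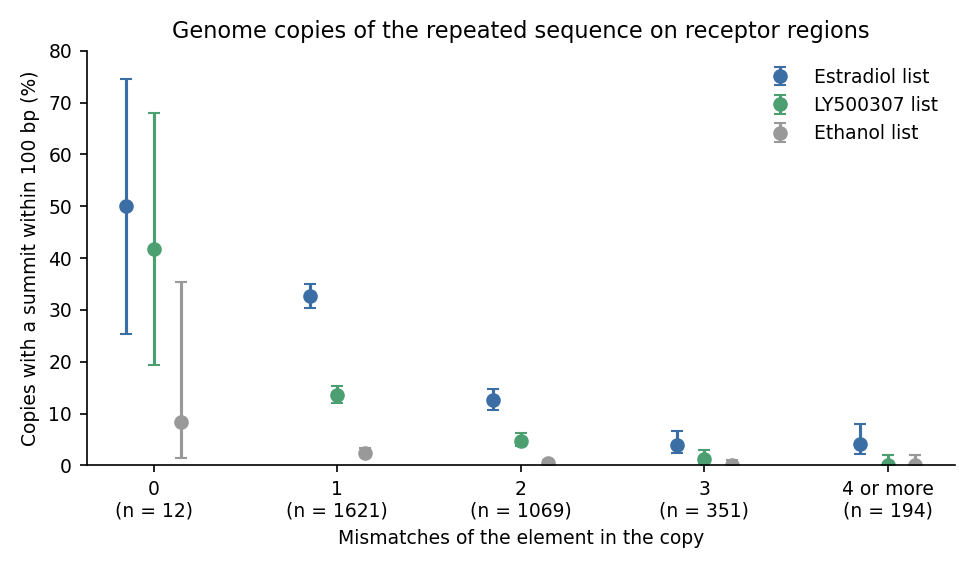
Share of the genome copies of the repeated sequence (vertical axis, percent) with a summit of the estradiol, LY500307 or ethanol list within 100 bp, by the number of mismatches of the element in the copy; bars are 95% Wilson intervals. The estradiol share is 32.6% at 1 mismatch, 12.6% at 2 and 3.99% at 3, and the interval at 0 mismatches is wide because only 12 copies are perfect.

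A single base of the spacer also went with occupancy. Among the 1573 copies with A5T, 2 elements made up most, which differed in the last base of the spacer. The element with guanine there had an estradiol summit at 183 of 424 copies (43.2%, interval 38.5 to 47.9%), the one with adenine at 278 of 993 (28%, 25.3 to 30.9%). LY500307 summits were at 20.3% of the copies with guanine (16.7 to 24.4%) and at 10.5% of those with adenine (8.72 to 12.5%). For ethanol the shares were 4.72% and 1.31% in the same order. Where both were occupied, their median estradiol folds were 17.9 and 16.5. The median identity of the copies to the majority sequence was 88.5% with guanine and 91.0% with adenine, and its part in this difference was not tested.

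Occupied and unoccupied copies lay in different surroundings. Of the 515 A5T copies with an estradiol summit, 290 (56.3%, interval 52.0 to 60.5%) had a further estradiol summit within 20 kb, against 236 of 1058 copies without one (22.3%, 19.9 to 24.9%). Their median distance to a protein-coding TSS was 33.6 kb, against 66.9 kb for the unoccupied copies. The intergenic share was 70.9% in both. How reads that match several places were handled is not given in the sources used here. When the 1-mismatch copies were divided by quartiles of identity over all copies, the occupied share was 34.2%, 32.2%, 32.5% and 32.2% in rising order of identity.

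Regions on a copy were of a strength close to that of the others. Their estradiol fold had a median of 16.5, against 14.5 for the other 1189 regions. They were in the LY500307 list in 40.6% of cases (interval 35.7 to 45.7%), against 42.1% (39.3 to 44.9%), and in the ethanol list in 7.80% (5.48 to 11.0%), against 11.8% (10.1 to 13.7%). A fold of 100 or more was reached by 2 of the 372 and by 42 of the 1189. The strongest on a copy lay 2.05 kb upstream of RHOBTB3, with folds of 136, 26.5 and 12.02 in the estradiol, LY500307 and ethanol lists. The region near DROSHA, which encodes the nuclear nuclease of microRNA processing, had 93.5, 32.3 and 8.04. Other regions on copies were those near PALMD and PSRC1 and the strongest region within 100 kb of SKIL, TIMP2, INHBA, RELA, CXCL2 and MAFK.

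With the copies set aside, the mismatches were spread over the arm unevenly. Position 3 held 38.1% of the 1189 mismatches, position 1 held 23.8%, position 5 held 13.5%, position 2 held 12.8% and position 4 held 11.8%. The 62 elements with 1 mismatch in the windows 2000 bp downstream were uneven too, with 27.4% at position 3, 21.0% at position 1, 14.5% at position 5, 25.8% at position 2 and 11.3% at position 4. Copies were not set aside among these 62, of which 8 carried A5T, and their small number makes the shares rough. The commonest single change off the copies was T3G with 207 regions (17.4%), against 8 of those 62 (12.9%), followed by G1T with 141 and G1A with 137. The rarest were C4A with 4 regions and G1C with 5. T3G was also the mismatch of 4 of the 10 strongest regions. Regions with a mismatch at position 3 had a median fold of 17.1, those at position 5 had 16.3, at position 4 14.4, at position 1 11.9 and at position 2 11.7. The share in the LY500307 list was 46.8% (interval 42.3 to 51.4%) at position 3 and 35.5% (28.4 to 43.4%) at position 2. That in the ethanol list was 14.8% (11.8 to 18.4%) at position 3, 7.24% at position 2 and 7.14% at position 4. The T3G regions had a median fold of 19.3, the LY500307 list held 50.2% of them, and the ethanol list 18.8% (14.1 to 24.7%).

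**Figure D4:**
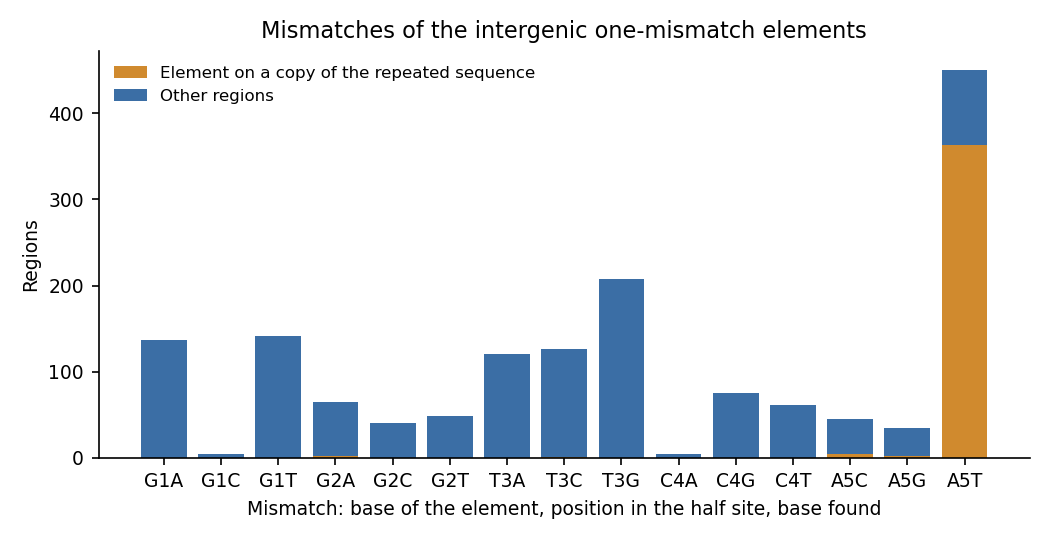
Number of regions (vertical axis) with each of the 15 possible mismatches (horizontal axis, base of the element, position in the arm and base found), split into regions whose element lies on a copy of the repeated sequence and other regions. The tall A5T bar holds 363 regions on copies and 87 others, and T3G is the highest bar without copies, with 207.

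The bases just outside the element were an A before the mismatched arm and a T after the intact arm in 25.2% of the 1189 regions off the copies, and neither in 27.4%. Median folds were 14.3 with both and 13.6 with neither. On the copies 77.7% had both.

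Elements of 6 other kinds were sought, and 2 of them, AP-1 and SP1, were less frequent than in the intergenic regions with 2 or more mismatches. Each was sought on both strands of the window of 100 bp on either side of the summit, without mismatch. The AP-1 element TGANTCA was in 16.8% (interval 15.0 to 18.7%) of the 1561 windows, against 24.4% (23.5 to 25.3%) of the intergenic windows with 2 or more mismatches and 17.5% of all estradiol windows. It was in 4.57% of the windows on copies and in 20.6% (18.4 to 23%) of the others. The SP1 element GGGCGG was in 3.78%, against 10.1% of the windows with 2 or more mismatches and 20.8% of all estradiol windows. In intronic windows with 1 mismatch AP-1 was in 15.1% and SP1 in 6.89%. In windows of intergenic perfect EREs the shares were 11.4% and 6.78%, so lower shares were not particular to the 1561 regions. The TEAD element GGAATG was in 32.0% of the 1561 windows, against 19.0% with 2 or more mismatches and 16.3% of all estradiol windows. It was, however, in 77.7% of the windows on copies and in 17.7% (15.6 to 19.9%) of the others. A further ERE arm, GGTCA, outside the element was in 59.8%, against 59.4%, and in 80.6% of the windows on copies against 53.3% of the others. The FOXA element TGTTTAC was in 2.37%, against 1.98%, and the GATA element AGATAA in 10.2%, against 10.9%. Of all estradiol windows, 51.1% held an ERE arm outside the best element, 1.67% the FOXA element and 8.23% the GATA element. The 262 regions with an AP-1 element had a median fold of 16.0, against 15.2 for those without, and 48.5% of them were in the LY500307 list, against 40.3%. The median GC content of the windows was 48.3%, against 51.2% for the windows with 2 or more mismatches.

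The distance to genes was close to that of other intergenic regions. The median distance to the nearest protein-coding TSS was 45.6 kb (interval 42.0 to 50.1), with quartiles of 16.5 and 126 kb, against a median of 46.7 kb (44.8 to 48.6) for the intergenic regions with 2 or more mismatches. Within 5 kb lay 138 regions (8.84%, against 8.58%), at 5 to 20 kb 305 (19.5%, against 20.3%), at 20 to 50 kb 375 (24.02%, against 22.99%), at 50 to 100 kb 266 (17.04%, against 18.4%), at 100 to 500 kb 420 (26.9%, against 26.3%) and beyond 500 kb 57 (3.65%, against 3.42%). Median folds were 16.5 within 5 kb, 14.9 to 15.6 in the bins between 5 and 500 kb, and 11.6 beyond 500 kb. The rank correlation of fold and distance was −0.043. The LY500307 list held 48.6% of the 138 regions within 5 kb and 38.6% of the 57 beyond 500 kb. For the intergenic regions with 2 or more mismatches these shares were 32.5% and 29.7%. The ethanol share was 13.04% within 5 kb and 10.5% (6 regions) beyond 500 kb, against 7.02% and 8.42%. These shares by distance carry no intervals, and a trend with distance was not tested. The median distance was 40.1 kb for regions on a copy and 48.8 kb for the others. A transcript of any gene type covered the summit of 493 regions (31.6%, interval 29.3 to 33.9%), against 35.1% (34.0 to 36.1%) of the intergenic regions with 2 or more mismatches. Transcripts of lncRNA genes covered 424 of the summits (27.2%).

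**Figure D5:**
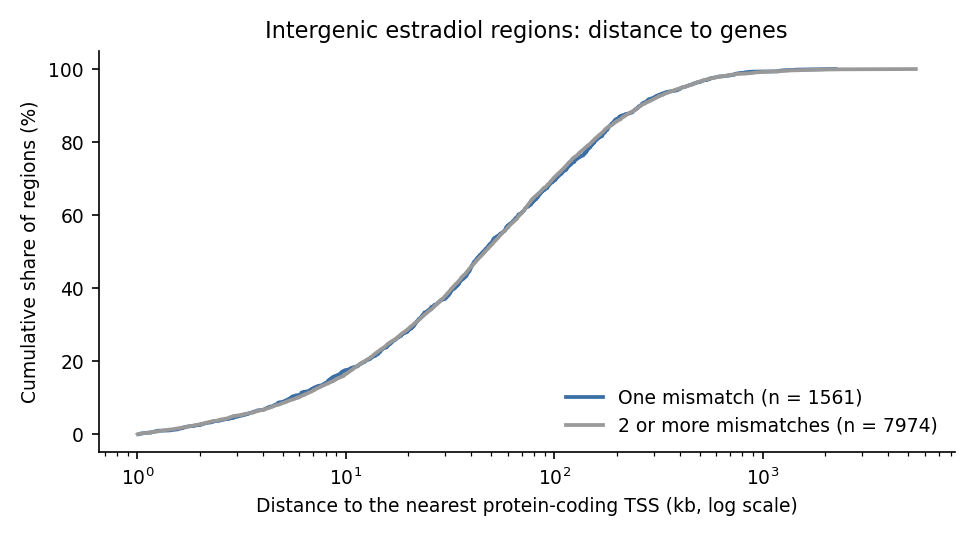
Cumulative share of intergenic estradiol regions (vertical axis, percent) by distance to the nearest protein-coding TSS (horizontal axis, kb, log scale), for the 1561 regions with 1 mismatch and the 7974 with 2 or more. The curves run together, with medians of 45.6 and 46.7 kb.

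The nearest regions to a TSS lay just beyond the promoter limit, 1025, 1033 and 1040 bp upstream of PSRC1, PMP22 and RAB40C, with folds of 5.25, 10.5 and 35.5. Just inside the limit, and so left out, were 1-mismatch regions 999, 949 and 946 bp upstream of OTUD6B, OSBPL9 and GZF1, with folds of 9.10, 9.10 and 41.8. The farthest lay 2236 kb from AGA, 1947 kb from SEL1L and 1604 kb from PLA2G4A, with folds of 5.74 to 8.50, and none of these 3 was in another list. The lowest by −log10 q, near TOPAZ1, MAP1B, CLPB, TRAM1L1 and KITLG, had folds of 3.74 to 4.60.

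Some regions lay in groups. Another of the 1561 lay within 20 kb of 218 regions (14.0%), which formed 88 pairs and 14 groups of 3. A further estradiol summit of any kind lay within 10 kb of 44.8%, against 50.4% of the intergenic regions with 2 or more mismatches. Of the 1270 genes that were nearest to a region (6.46% of 19663 protein-coding genes), 1050 had 1 region and 4 had 5 regions, namely CEBPB, INHBB, PRKX and TLE3. CEBPB encodes a bZIP transcription factor, and its 5 regions, 46.7 to 159 kb away, had folds of 49.7, 21.3, 31.2, 12.5 and 21.9 from the nearest to the farthest. The LY500307 list held 4 of these and the ethanol list 2. The regions of INHBB had folds of 129, 15.2 and 29.5 upstream and 31.8 and 7.59 downstream, with 4 in the LY500307 list and none in the ethanol list. TLE3, a transcriptional corepressor, had folds of 6.25 to 134 with 4 regions in the LY500307 list and 2 in the ethanol list. PRKX, a protein kinase, had 5.25 to 75.2, with 3 and 1.

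Genes were grouped into 10 lists, 2 of them control lists of neuronal and muscle genes, and counted when a region lay within 100 kb of a TSS, which held for 12.8% of 19663 protein-coding genes. It held for 13 of 26 classical estrogen targets (50%, interval 32.1 to 67.9%). Beside CTSD, the strongest regions of that list lay 66.6 kb from IGFBP4, a binding protein of insulin-like growth factors, with an estradiol fold of 99.6, and 81.3 kb from SIAH2, a ubiquitin ligase, with 88.0. The region 99.3 kb from CCND1, which encodes cyclin D1, had folds of 75.3, 13.9 and 8.84 in the estradiol, LY500307 and ethanol lists. At the trefoil factor genes TFF1, TFF2 and TFF3, secreted products of mucosal and breast epithelium, 1 weak region lay within 100 kb of all 3, with a fold of 6.25 in the estradiol list and none in the others, and it lay on a copy of the repeated sequence.

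Of the genes of AP-1 factors, 7 of 12 (58.3%, 32.0 to 80.7%) had a region within 100 kb. The strongest at FOSL2 had folds of 47.9 and 21.3 in the estradiol and LY500307 lists, that at ATF3 42.2 and 9.85, and that at JUNB, 2.57 kb from its TSS, 38.5 and 12.9. FOS itself had a region at 20.1 kb with 16.8 and 5.22. Of these only the ATF3 region was in the ethanol list, with a fold of 6.41. Of the EMT and invasion genes, 8 of 24 (33.3%, 17.97 to 53.3%) had one, among them LOXL4, a lysyl oxidase acting on the extracellular matrix, with 79.7, 57.3 and 15.7 in the 3 lists. The count was 5 of 20 for the NF-kB pathway (25.0%), including NFKBIA and TNFAIP3, inhibitors of that pathway, with estradiol folds of 13.4 and 8.50. It was 6 of 30 for TGF-beta and activin signalling (20.0%), with SMAD7, SKIL (a corepressor of SMADs, fold 77.3) and INHBB as the strongest, and 5 of 28 for nuclear receptors and coregulators (17.9%). Cystatins had 2 of 13 (15.4%), cell cycle regulators 3 of 26 (11.5%) and each control list 2 of 18 (11.1%). No list was tested against 12.8%, because the lists were chosen with earlier results of these data known. Neighbouring genes can share a region, as TFF1, TFF2 and TFF3 do, so the genes of a list are not independent. The strongest regions of the counted muscle control genes were also counted for estrogen targets, that at CTSD among them. The lists are therefore not independent of each other either. The regions may act on other genes.

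The same rule found 653 regions in the LY500307 list and 172 in the ethanol list. Of the 653, 652 overlapped an estradiol region and 642 overlapped 1 of the 1561. Of the 172, 171 overlapped an estradiol region and 169 overlapped 1 of the 1561. These regions made up 16.0% of the intergenic estradiol regions, 17.1% of the intergenic LY500307 regions and 17.99% of the intergenic ethanol regions. Their median folds were 15.2, 10.3 and 8.71 in the 3 lists, and their median distances to a TSS 45.6, 44.5 and 42.7 kb.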

How the data were processed

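Lists of enriched regions were analysed for 3 treatments. Per the submitters' processing notes, the tools were MACS2 2.1.1.20160309, Bowtie2 2.2.6 and DiffBind on hg38, with no step given for each, and whether all 4 ChIP libraries of a treatment went into its list is not stated. The deposited fold is, by the column order, the authors' ratio of ChIP to local background signal at a summit. The −log10 q values were deposited by the authors from their peak caller, and the authors' display score was not used. Read numbers are unknown from the lists.

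Chromosomes 1 to 22, X and Y were used, 26861 of 26896 for estradiol, 10045 of 10059 for LY500307 and 2905 of 2911 for ethanol. Transcripts of type protein-coding and their TSSs came from GENCODE 44. The element was sought in the hg38 sequence within 100 bp of the summit, with mismatches counted over its 10 fixed positions. Ties went to the element nearest the summit. A region counted as shared from an overlap of 1 bp, with the stronger one used where several did. Shares carry Wilson intervals and medians carry order-statistic intervals, both at 95%. No test was made, since each treatment had 1 pooled list. The regions, motifs and gene lists were chosen with earlier results of these data known. Regions named are the highest overall (10), the highest of each sharing class (up to 5), the nearest and farthest (3 each), the lowest (5), the highest of each mismatch (3, named where printed), the genes nearest to the most regions, the strongest region of each listed gene and regions of the other lists that overlap no estradiol region.

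The repeated sequence was sought after the data had been seen, with blastn 2.17.0 against hg38, from a majority sequence that left out regions on chromosome 8, at an e-value of at most 1e-05 and an aligned length of at least 80 bases covering the element. The best element within 20 bp of the aligned place was then scored. Python 3.11.15, numpy 2.4.6, pandas 2.3.3, scipy 1.17.1, pysam 0.24.0 and matplotlib 3.10.9 were used, and the search, overlap, distance and alignment steps were tested on simulated data. The bases of the repeated sequence and 1 gene of the lists are not reported here.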

Additional observations from a re-analysis of the deposited data

How the results depend on the processing

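Each of the 6 results was recomputed under the alternatives, 1 choice at a time. Requiring a −log10 q of at least 5 moved none of them by more than its interval or, for the number of regions, by more than 1.5 times. The same held for 2 alternatives chosen after seeing the data, leaving out every transcript of a protein-coding gene (1497 regions) and leaving out the copies of the repeated sequence (1189 regions). With summits within 100 bp of each other in place of overlap, both shares stayed within their intervals. Outside transcripts of any gene type 1038 regions were left, with a median TSS distance of 41.2 kb, and a promoter of 5000 bp gave 52.6 kb. A fold of at least 10 in every list gave a median fold of 23.3, a LY500307 share of 32.4%, an ethanol share of 6.51% and an element within 25 bp in 77.0%. Overlap of 50% of each region gave shares of 38.8% for LY500307 and 5.70% for ethanol. With lists cut to the length of the ethanol list, 270 regions met the rule, and the LY500307 list held 79.6% of them, the ethanol list 54.4%. The element was within 25 bp of the summit in 69.0% of regions with a window of 200 bp and in 80.8% with one of 50 bp. The cause of these moves was not tested, and the alternative shares are given without the like values over all estradiol regions. No paired analysis was possible because each treatment has 1 pooled list and the replicate numbers only name samples. The dose of LY500307 and the number of pooled libraries are uncertain, the depth of the lists is unknown, and a region absent from a list can lie below its threshold.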

Other observations

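Regions that met the rule in another list and overlapped no estradiol region were rare. The 1 such LY500307 region lay 479.5 kb from the TSS of RPS29, a ribosomal protein gene, with a fold of 4.56 and G1C in its element, 84 bp from the summit. The nearest estradiol summit was 239 kb away. The 1 such ethanol region lay 52.3 kb from the TSS of MTPN, which encodes myotrophin, with a fold of 5.66 and C4G, 51 bp from the summit, and an estradiol summit lay 1.16 kb away.

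The promoter of the nearest gene held an estradiol summit for 358 of the 1561 regions (22.9%, interval 20.9 to 25.1%), against 25.4% (24.5 to 26.4%) of the intergenic regions with 2 or more mismatches. The regions made up between 13.3% (chromosome 17) and 19.6% (chromosome 12) of the intergenic estradiol regions on the autosomes, and 17.8% on chromosome X.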
